A study of Homo sapiens with 10 samples.

Results

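Bone morphogenetic protein (BMP) signalling was described in IMR90 cells through 10 genes: the ligands BMP2 and BMP4, the secreted antagonist GREM1, the decoy receptor BAMBI, the inhibitory SMADs SMAD6 and SMAD7, and the inhibitors of DNA binding ID1, ID2, ID3 and ID4. They were taken by symbol, as all 20 probe sets of the Affymetrix array that carry exactly 1 of these gene symbols, of 54613 non-control probe sets and 19775 named genes in all. IMR90 is an established line of normal human fibroblasts that came from fetal lung. Proliferating cells at 28 population doublings and senescent cells at 90 population doublings were each hybridised to 5 arrays of total RNA. All cells were grown in DMEM with 10% serum and 1% penicillin and streptomycin at 3% oxygen, and the senescent cells had been passaged until growth stopped and then kept in dishes for 2 weeks. No group carries a knockdown or other genetic change in the labels, all arrays come from 1 line, and population doublings differ together with growth state, so the effects of these cannot be told apart. The question is which of these genes differ in expression between the growing and the senescent state.

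BMP ligands bind paired type I and type II receptor kinases, which phosphorylate SMAD1, SMAD5 and SMAD9, and these enter the nucleus with SMAD4. The ID genes are among the best known direct targets of that pathway. ID proteins have a helix-loop-helix domain but no DNA-binding region, so they hold E proteins and related factors away from DNA, and ID1 is known as a repressor of the senescence gene CDKN2A in fibroblasts. SMAD6, SMAD7 and BAMBI are feedback inhibitors whose transcription BMP or TGF-beta signalling can raise, and GREM1 binds BMP2 and BMP4 outside the cell.

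The deposited data hold 1 log2 value for each probe set on each array, with array medians of 3.05 to 3.12. Values of different probe sets are not on a common scale of abundance, so only differences between the states are compared between genes. Testing was limited to probe sets that exceeded the 40th percentile of the array on 5 or more of the 10 arrays, and "rose" and "fell" mark an adjusted p below 0.05 over all 32732 tested probe sets in limma. Whether the 5 arrays of a state hold RNA of separate cultures is not given in the labels, so the p-values reflect the spread between these samples alone, and that spread may be technical. All 15 fibroblast markers lay above the 60th percentile on every array, whereas 0 of 6 leukocyte, 1 of 8 endothelial (TEK) and 2 of 10 epithelial markers (KRT18 and SFTPC) did. The mean epithelial signal was 4.25 to 4.31 in proliferating and 3.84 to 3.99 in senescent samples. CDH1, KRT8, KRT5, KRT14, CLDN4 and NKX2-1 were never above that percentile. Of 4 tested epithelial markers 3 fell and 1 rose. EPCAM and KRT19 lay above that percentile on all 5 proliferating arrays but on only 1 senescent array, and fell by 2.31 and 1.26. The part of this epithelial signal in the results was not tested. Of 8 smooth muscle markers 6 lay above the 60th percentile on all arrays (MYH11, CNN1, ACTA2, SMTN, TAGLN and ACTG2) and DES never did. Their mean was 7.83 to 8.15 in proliferating and 8.07 to 8.18 in senescent samples. Of 7 tested 4 rose and 1 fell. The latter was MYH11, which fell by 0.72 on its tested probe set of highest mean. The 3 other tested probe sets of MYH11 were called higher, so its direction depends on the probe set. The part of the smooth muscle markers in the results was not tested. As a check of the labels, the lamin gene LMNB1 fell by 5.51 on the log2 scale, the division gene MKI67 fell by 5.31 and CDKN2A rose by 3.20. The 3' minus 5' signal of the ACTB control, a sign of RNA integrity, averaged 2.07 ± 0.14 (SD, n = 5) in the proliferating and 2.32 ± 0.10 (SD, n = 5) in the senescent state, and the fit was repeated with it as a covariate.

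Array proliferating 5 lay at an end of the proliferating range for these genes. Its value lay outside the range of proliferating 1 to 4 for all 14 tested probe sets, which belong to 9 genes, whereas it was the highest or lowest proliferating array for 52.2% of all tested probe sets. The margin was small for some, such as SMAD6 with 7.70 beside 7.68 in proliferating 1. It was flagged as far from the others only for ID2 (201565_s_at) and ID4 (226933_s_at and 209291_at), by the rule given below. For 8 of the 14 the shift ran in the direction of the senescent arrays (GREM1, BAMBI, SMAD6, SMAD7, ID2 and ID3), and for the other 6 it ran away from them (BMP2, BMP4 and ID4). For BMP2, SMAD7, ID2, ID3 and ID4 the differences are given with and without it.

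Both ligand genes rose, and BMP2 had the largest differences of the 14 tested probe sets. BMP2, best known as a bone-inducing ligand, read 6.48, 5.96, 6.77, 6.59 and 4.78 in proliferating samples 1 to 5 on probe set 205289_at and 11.17, 11.03, 11.02, 10.99 and 11.10 in senescent samples 1 to 5. The senescent values lay close together and far above every proliferating value, and proliferating 5 was lowest. The log2 rise of BMP2 was 4.95 (SE 0.33), or 30.8-fold, with limma's adjusted p = 6.3e-07. Its other probe set, 205290_s_at, ran from 4.33 to 6.38 in proliferating and from 10.93 to 11.17 in senescent samples and rose 39.5-fold (limma's adjusted p = 5.3e-07). Without proliferating 5 the differences were 4.61 and 4.95, with SEs of 0.145 and 0.151.

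BMP4, a ligand of the same receptors with roles in lung development, read 4.32, 3.73, 3.40, 3.44 and 3.28 in proliferating and 6.89, 6.71, 6.92, 6.73 and 6.69 in senescent samples on its 1 probe set. The groups did not overlap, and on all proliferating arrays the value lay below the 60th percentile of the array. BMP4 rose by 3.16 (SE 0.18), which is 8.91-fold, with limma's adjusted p = 1.9e-07, and how far the low signal in proliferating cells sets the size of that fold was not tested. The difference of the log2 changes, BMP4 minus BMP2, was -1.79 (exact permutation p = 0.00794 over all assignments of the arrays to the groups, two-sided and the smallest possible, 0.0119 after adjustment over 9 pairs of genes). No order of the pair is read from it, because the rise of BMP4 starts from low signal. The p also had to be the smallest possible, since the gap between the groups of BMP2 (6.77 to 10.99) was wider than the whole range of BMP4 (3.28 to 6.92).

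Of 13 other ligands of the family fixed as a list, 4 were tested: GDF5, a ligand of joint and cartilage development, fell from 5.26 ± 0.43 to 3.44 ± 0.67 (SD, n = 5 each; limma's adjusted p = 0.00059 over genes) and BMP8B fell by 0.38. BMP5 and BMP6, at -0.02 and 0.06, did not pass, and both lay below the 60th percentile on all arrays. GDF5 lay below the 60th percentile on every senescent array. With the ACTB control as a covariate the difference of BMP8B was -0.35 with a larger SE (0.16 beside 0.10) and no longer passed (limma's adjusted p = 0.11).

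**Figure D1:**
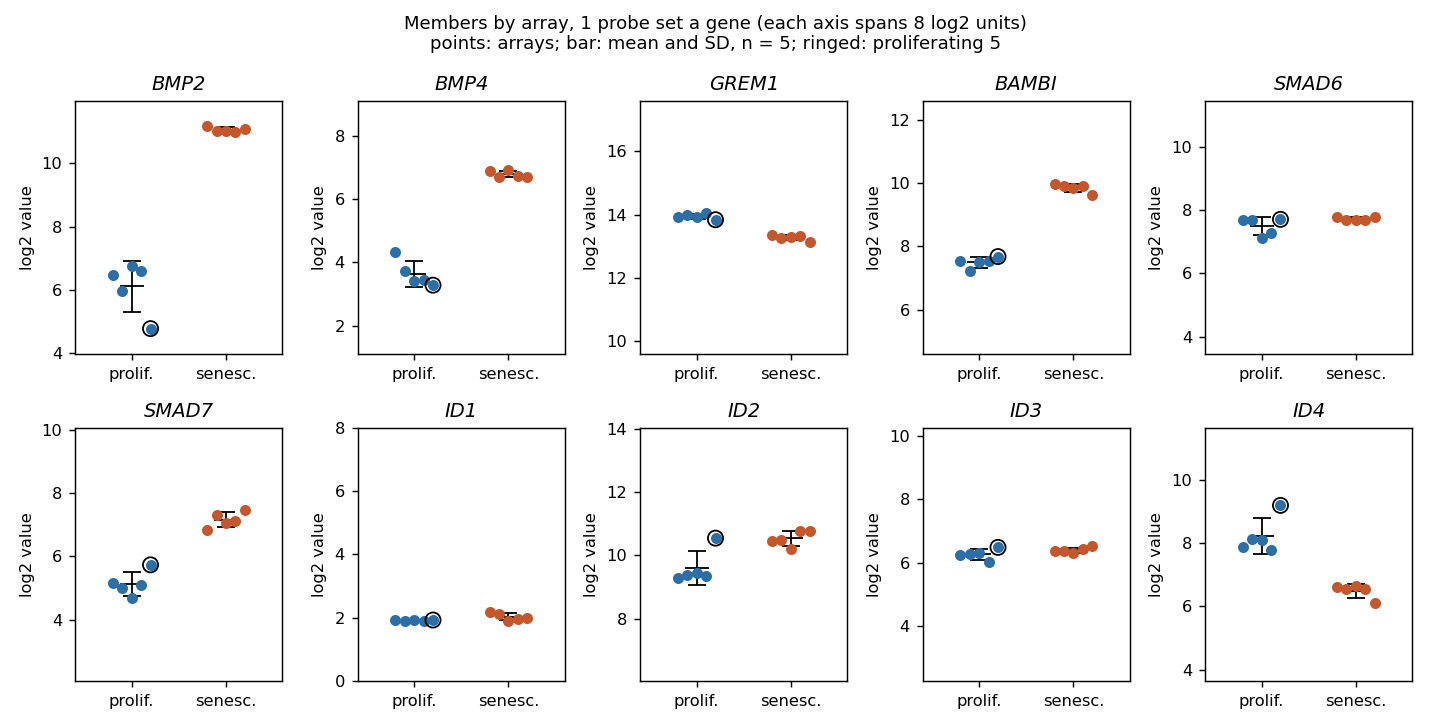
Deposited log2 value (vertical axis, spanning 8 units in every panel) of the 10 genes on 1 probe set each, for the 5 proliferating (blue) and 5 senescent (orange) arrays, with mean and SD; the ring marks proliferating 5. BMP2, BMP4, BAMBI and SMAD7 lie higher on every senescent array, GREM1 and ID4 lower, and ID1 lies near 2 on all arrays.

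The secreted antagonist moved the other way by a smaller amount. GREM1, or gremlin, read 13.91, 14.00, 13.94, 14.06 and 13.84 in proliferating and 13.36, 13.27, 13.28, 13.33 and 13.14 in senescent samples on probe set 218468_s_at. Every senescent value was below every proliferating one, and the signal stayed near the top of the scale in both states. How far that high signal sets the size of the fall was not tested. GREM1 fell by 0.67 (SE 0.06), or 1.59-fold, and on 218469_at it fell by 0.96 (SE 0.05), or 1.94-fold (limma's adjusted p = 3.6e-06 and 1.2e-07).

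BAMBI, a receptor-like protein without a kinase domain that blocks BMP and TGF-beta receptors at the membrane, rose. It read 7.53, 7.22, 7.52, 7.55 and 7.68 in proliferating and 9.97, 9.89, 9.85, 9.90 and 9.62 in senescent samples. The groups did not overlap, and BAMBI rose by 2.35 (SE 0.09), or 5.10-fold (limma's adjusted p = 1.5e-08). BAMBI and GREM1, both inhibitors of the pathway, thus changed unequally, by 3.02 on the log2 scale (exact permutation p = 0.00794, adjusted 0.0119). Since BAMBI rose and GREM1 fell, both without overlap, this p had to be the smallest possible. It adds nothing to the results of the single genes.

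Promoter sequences are shown for the 3 genes whose windows hold a GC-rich element known to bind SMADs. Windows of 250 bases upstream of annotated starts (RefSeq, GRCh38.p14) were found for 9 of the 10 genes, all but BMP2, 14 windows in all. The GC-rich element GGCGCC, which SMAD1 and SMAD5 can bind, was searched on both strands; it is its own reverse complement and so counts once. It occurred in 3 windows, those of BAMBI, GREM1 and BMP4, whereas 16.4% of 35116 windows of all genes held it. The most upstream windows of these genes follow, 5' to 3' on the gene's strand, with GGCGCC in capitals; they are chr10:28677271-28677520 (+) for BAMBI, chr15:32717754-32718003 (+) for GREM1 and chr14:53955051-53955300 (-) for BMP4.
BAMBI: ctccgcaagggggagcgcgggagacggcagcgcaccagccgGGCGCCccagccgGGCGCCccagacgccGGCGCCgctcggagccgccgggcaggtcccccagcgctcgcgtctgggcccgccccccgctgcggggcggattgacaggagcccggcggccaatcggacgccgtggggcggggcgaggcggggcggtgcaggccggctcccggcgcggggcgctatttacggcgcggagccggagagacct
GREM1: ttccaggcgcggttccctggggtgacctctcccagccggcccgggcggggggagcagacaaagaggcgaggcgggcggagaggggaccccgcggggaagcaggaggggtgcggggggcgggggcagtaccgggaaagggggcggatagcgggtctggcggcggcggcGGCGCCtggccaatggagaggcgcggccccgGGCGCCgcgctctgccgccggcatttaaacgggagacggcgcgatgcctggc
BMP4: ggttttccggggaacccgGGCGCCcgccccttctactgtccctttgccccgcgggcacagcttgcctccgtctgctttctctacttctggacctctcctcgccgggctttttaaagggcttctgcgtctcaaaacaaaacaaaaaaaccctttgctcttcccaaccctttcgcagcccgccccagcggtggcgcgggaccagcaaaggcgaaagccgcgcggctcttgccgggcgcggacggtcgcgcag

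The BAMBI window held GGCGCC 3 times, starting 209, 196 and 181 bases before the start, and was 81.2% G and C. GREM1 held it at 83 and 52 bases and BMP4 at 232 bases before the start. BAMBI and BMP4 rose and GREM1 fell, so the letters were present with both directions of change. The SMAD box GTCTG (or CAGAC on the other strand) was in 9 of the 14 windows and in 38% of all windows, and the E-box CANNTG, to which E proteins bind, in 5 of 14 and in 61.8%. The windows of all genes were not matched for GC content, and a match of letters is no measured binding site. The windows of SMAD6, SMAD7, ID1, ID2, ID3 and ID4 held no GGCGCC within these 250 bases.

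Of the inhibitory SMADs one rose and the change of the other did not pass. SMAD7, which blocks both BMP and TGF-beta receptors and recruits ubiquitin ligases to them, read 5.16, 5.00, 4.67, 5.10 and 5.73 in proliferating and 6.83, 7.31, 7.06, 7.12 and 7.46 in senescent samples. The groups did not overlap, and proliferating 5 was nearest to the senescent samples. SMAD7 rose by 2.03 (SE 0.19), which is 4.07-fold, with limma's adjusted p = 6.9e-06, and by 2.18 (SE 0.14) without proliferating 5. Its value lay above the 60th percentile on only 4 of 5 proliferating arrays. How far this signal sets the size of the fold was not tested.

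SMAD6, which preferentially restrains BMP receptors, read 7.68, 7.67, 7.11, 7.27 and 7.70 in proliferating and 7.77, 7.67, 7.69, 7.69 and 7.78 in senescent samples on 207069_s_at. The groups overlapped, with proliferating 3 and 4 below the rest. The difference was 0.23 (95% interval -0.03 to 0.50, limma's adjusted p = 0.13). It was 0.14 without proliferating 3 (limma's adjusted p = 0.24) and 0.38 with the ACTB covariate (limma's adjusted p = 0.13). The 3 other SMAD6 probe sets lay at 1.53 to 2.78 on all arrays, too low to be tested, and so the gene rests on 1 probe set. The change of SMAD7 exceeded that of SMAD6 by 1.79 (exact permutation p = 0.00794, adjusted 0.0119). The gap between the groups of SMAD7 (5.73 to 6.83) was wider than the whole range of SMAD6 (7.11 to 7.78). This p therefore had to be the smallest possible and adds nothing to the result of SMAD7.

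The ID genes did not move as a group: ID2 rose, ID4 fell, ID3 did not pass and ID1 lay too low to be tested. ID2, the family member that can also bind the retinoblastoma protein, read 9.29, 9.36, 9.43, 9.34 and 10.54 in proliferating and 10.45, 10.47, 10.19, 10.78 and 10.76 in senescent samples on 201565_s_at. Proliferating 1 to 4 lay close together and below all senescent samples, whereas proliferating 5 fell among the senescent values. ID2 rose by 0.94 (SE 0.24), or 1.92-fold, with limma's adjusted p = 0.0074, and by 1.18 (SE 0.12) without proliferating 5. On 201566_x_at it rose by 0.97 (SE 0.19, limma's adjusted p = 0.0018), with 6.71 to 7.84 in proliferating and 7.88 to 8.08 in senescent samples, though this probe set's suffix marks it as open to cross-hybridisation. Without proliferating 5 that rise was 1.17 (SE 0.08).

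ID4, known from neural and mammary differentiation, read 7.88, 8.13, 8.08, 7.78 and 9.19 in proliferating and 6.60, 6.55, 6.65, 6.54 and 6.10 in senescent samples on 226933_s_at. Proliferating 5 was highest and senescent 5 lowest, and the groups did not overlap. ID4 fell by 1.72 (SE 0.25), which is 3.30-fold, with limma's adjusted p = 0.00018, and fell by 1.48 (SE 0.12) without proliferating 5. Probe set 209291_at gave 7.98, 7.71, 7.83, 7.73 and 9.06 against 6.53, 6.21, 6.75, 6.63 and 5.74, with means that differed by -1.69 (SE 0.28; adjusted p = 0.00055 in limma), or -1.44 (SE 0.19) without proliferating 5.

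The third tested ID4 probe set, 209292_at, lay between 2.75 and 5.02 and fell by 0.81 (SE 0.30, limma's adjusted p = 0.044). This call was lost under 11 of 19 alternatives, with adjusted p up to 0.17, and without proliferating 5 the fall was 0.51 (adjusted p = 0.012). The remaining ID4 probe sets, 229386_at and 209293_x_at, lay near the bottom of the arrays at 1.91 to 2.28 and were not tested.

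ID3, a widely expressed member induced by serum and BMPs, read 6.25, 6.27, 6.31, 6.02 and 6.48 in proliferating and 6.36, 6.36, 6.31, 6.42 and 6.51 in senescent samples. The groups overlapped, and the difference of 0.13 did not pass (95% interval -0.05 to 0.31, limma's adjusted p = 0.21). It was 0.18 without proliferating 5 (limma's adjusted p = 0.058) and 0.07 without proliferating 4 (limma's adjusted p = 0.43). ID1 was measured by 208937_s_at alone, with 1.91, 1.89, 1.91, 1.90 and 1.92 in proliferating and 2.17, 2.11, 1.90, 1.96 and 1.98 in senescent samples. All 10 values lie near the bottom of their arrays, between percentiles 7.42 and 16.2. The ID1 difference of 0.12 had limma's adjusted p = 0.11 in the fit without a filter and an exact permutation p = 0.040, and a change in ID1 transcript could not be read from it.

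The 3 pairs among ID2, ID3 and ID4 changed unequally. ID4 differed from ID2 by -2.66 and from ID3 by -1.85 in log2 change (exact permutation p = 0.00794 each, adjusted 0.0119 over the 9 pairs). Since ID2 rose and ID4 fell, the test of ID4 with ID2 adds little to their single results. The gap between the groups of ID4 (6.65 to 7.78) was wider than the whole range of ID3 (6.02 to 6.51). The p of ID4 with ID3 therefore had to be the smallest possible and adds nothing to the result of ID4. ID3 differed from ID2 by -0.81 (exact permutation p = 0.0159, adjusted 0.0204), and by -0.99 without proliferating 5. With all 5 ID4 probe sets averaged the difference of ID4 from ID3 was -0.97. That mean includes the untested ID4 probe sets near the bottom of the arrays, which pull it towards no change. The 3 pairs with ID1 are among the 9 of the adjustment but are not read, since ID1 lay near the bottom of the scale on every array.

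**Figure D2:**
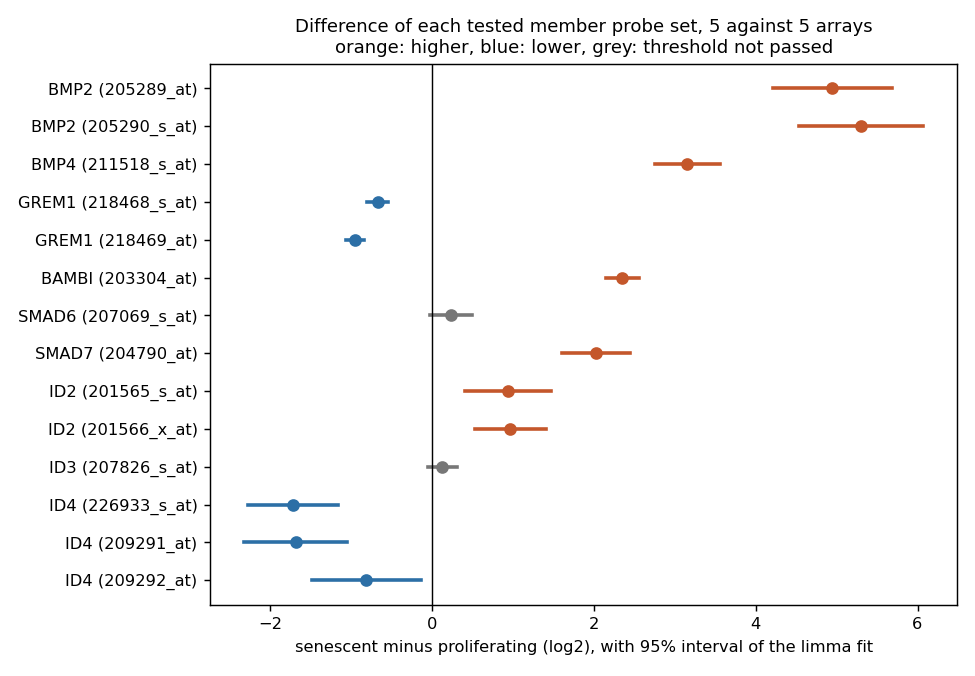
Senescent minus proliferating difference (horizontal axis, log2) of the 14 tested probe sets with the 95% interval of the limma fit, 5 against 5 arrays. Probe sets of 1 gene lie on the same side of 0; BMP2 is furthest to the right, ID4 and GREM1 lie to the left, and the intervals of SMAD6 and ID3 include 0.

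Of the 20 probe sets, 14 were tested, 7 rose and 5 fell, in 5 and 2 genes, beside 53% of all tested probe sets called in either direction, 26.9% higher and 26.2% lower. The groups did not overlap for 11 of the 14, beside 44.5% of all tested probe sets. The tested ones had passed a filter on signal and are not the whole set, and several of them share a gene, so these counts describe the probe sets and support nothing further.

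**Figure D3:**
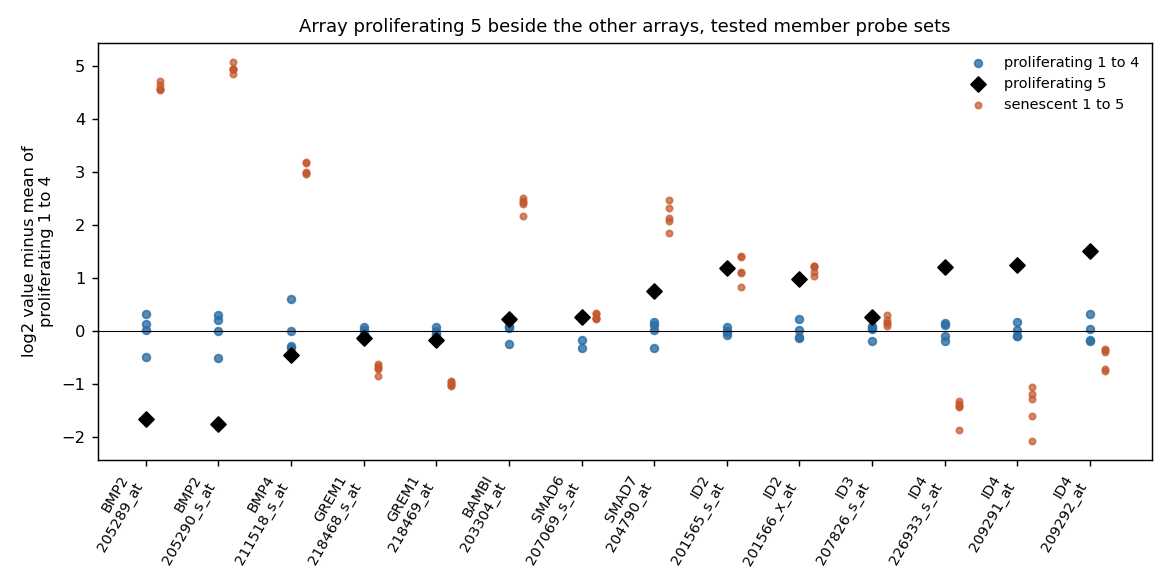
Log2 value of each array minus the mean of proliferating 1 to 4 (vertical axis) for the 14 tested probe sets; blue points are proliferating 1 to 4, black diamonds proliferating 5 and orange points senescent 1 to 5. Proliferating 5 lies outside the blue points for every probe set, near the senescent points for ID2 and opposite to them for BMP2 and ID4.

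The size of the shift in proliferating 5 differed between the genes. Against the mean of proliferating 1 to 4 it was 1.19 and 0.99 higher for the ID2 probe sets, beside senescent means that were 1.18 and 1.17 higher. On 201565_s_at it lay among the senescent values and on 201566_x_at just below the lowest of them. It was 1.22, 1.24 and 1.51 higher for the ID4 probe sets, whose senescent means differed from the same 4 arrays by -1.48, -1.44 and -0.51. BMP2 was lower in proliferating 5 by log2 differences of -1.67 and -1.75, and SMAD7 was 0.75 higher. GREM1, BAMBI, SMAD6 and ID3 moved by less than 0.3 in either direction. The division gene MKI67 read 11.68 and CDKN2A 4.73 in proliferating 5, against 11.32 to 11.45 and 2.89 to 5.45 in the other proliferating samples. CCNA2 read 11.94 against 11.68 to 11.92, CCNB1 13.27 against 12.92 to 13.09 and CDKN1A 12.55 against 12.63 to 12.67. LMNB1 read 10.89 against 10.82 to 11.06. For MKI67, CCNA2, CCNB1 and CDKN1A proliferating 5 thus lay on the side away from the senescent arrays. SMAD1 read 10.25 in proliferating 5 against 10.87 to 11.15. The part of culture state, RNA or array in this shift was not tested.

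Other genes of the pathway were read from 7 lists with 112 genes, of which 80 were tested on 1 probe set each. Of these 34 rose, 24 fell and 22 did not pass, that is 72.5% called beside 61.3% of all 12909 genes tested (31% higher, 30.3% lower), with a median of 0.06 beside 0.04. With the ACTB covariate 29 rose and 21 fell. The lists were chosen with earlier results of these data known, and the counts and medians are descriptions.

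Receptor genes were mostly higher. Of 10 tested receptors and coreceptors 7 rose, 2 fell and ACVRL1 (-0.05) did not pass (median 0.52). NEO1, the RGM receptor neogenin, rose from 9.47 ± 0.10 to 11.73 ± 0.09 (SD, n = 5 each; limma's adjusted p = 7.6e-10 over genes), and the coreceptor endoglin, ENG, rose by 1.36 (adjusted p = 1.7e-06). The type I receptor gene ACVR1 rose by 0.80, and the coreceptor betaglycan, TGFBR3, fell by 0.95. BMPR1A, the main type I receptor for BMP2 and BMP4 with BMPR1B, was not tested. With the ACTB covariate 5 rose and 2 fell, and with probe sets averaged per gene 1 fell.

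SMAD genes were mostly lower. SMAD1, the first BMP transducer, read 10.87, 11.10, 10.96, 11.15 and 10.25 in proliferating and 9.29, 9.09, 9.18, 9.33 and 9.24 in senescent samples. Every senescent value lay below every proliferating value, and SMAD1 fell by 1.64 (SE 0.15), which limma gave an adjusted p = 5.7e-06 over genes. SMAD4, the common partner, fell by 0.75, and SMAD3, a TGF-beta transducer, fell by 0.82. SMAD5, the closest relative of SMAD1, fell by 0.17 (limma's adjusted p = 0.021), which was lost with centring of the arrays on tested probe sets or housekeeping genes, with the ACTB covariate and without senescent 1 or 4 (adjusted p 0.051 to 0.17). SMAD9 was the 1 gene of this list that rose, by 0.98, from 7.14, 7.19, 7.37, 7.29 and 7.91 to 8.60, 8.43, 8.11, 8.45 and 8.19 (limma's adjusted p = 0.00025). SMAD2 differed by -0.17 and did not pass (limma's adjusted p = 0.059), but it passed as lower under 7 alternatives.

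Secreted BMP antagonists and modulators other than GREM1 went in both directions. The list holds modulators besides antagonists, so its counts are not counts of antagonists. Of 16 tested 8 rose and 3 fell, with 5 not past the threshold (median 0.26). BMPER, a BMP-binding protein first found in endothelial precursors, rose by 1.89 (limma's adjusted p = 1.6e-06), and matrix Gla protein, MGP, by 1.86, from low signal in both states and tested only because all senescent arrays passed the filter. Chordin-like 1, CHRDL1, fell from 6.36 ± 0.68 to 3.20 ± 0.12 (SD, n = 5 each; limma's adjusted p = 3.8e-06) and SMOC1 fell by 1.78 with overlapping groups. CHRDL1 lay below the 60th percentile on every senescent array.

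Intracellular regulators changed by smaller amounts. Of 23 tested 11 rose, 5 fell and 7 did not pass (median 0.15), and the antiproliferative gene TOB1, which restrains SMADs in bone cells, had the only rise above 2-fold (1.47, limma's adjusted p = 6.0e-08). The ubiquitin ligase gene SMURF2, a partner of SMAD7, rose by 0.70. The phosphatase gene CTDSP2 fell by 0.77, and the ligase gene NEDD4L fell by 0.72. Without senescent 4, with the ACTB covariate or with probe sets averaged per gene 3 members fell in place of 5. With the ACTB covariate 8 rose in place of 11, and without shared probe sets 9 rose.

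BMP-responsive genes outside the ID family were divided. Of 14 tested 6 rose, 3 fell and 5 did not pass (median 0.03). TNFRSF11B, or osteoprotegerin, rose by 2.01 (limma's adjusted p = 9.8e-09), the homeobox gene MSX2 by 1.91 and the helix-loop-helix gene ATOH8 by 1.65. ATOH8 lay below the 60th percentile on all proliferating arrays. The haematopoietic factor gene GATA2 fell by 1.25.

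The helix-loop-helix factors that ID proteins can bind were mostly lower. Of 7 tested 5 fell, TCF21 rose by 1.02 and TCF3 did not pass (median -0.96). The E protein gene TCF4 fell from 11.70 ± 0.11 to 10.63 ± 0.08 (SD, n = 5 each; limma's adjusted p = 1.2e-07), TWIST2 fell by 1.25, and HES1, a Notch effector, fell from 6.10 ± 0.24 to 3.27 ± 0.23 (limma's adjusted p = 3.8e-08). HES1 lay below the 60th percentile on all senescent arrays. The probe set chosen for TCF3, 202648_at, differed by 0.02, whereas all 9 others of this gene fell, with log2 differences of -1.42 to -1.10, so this gene's entry depends on the probe set. In the other lists RGMB, FSTL1 and FKBP1A are counted as higher, while another probe set of each was called lower (242450_at -0.52, 240891_at -0.87 and 210187_at -0.43). USP9X did not pass on its chosen probe set, and 2 of its others were called in opposite directions (201099_at -0.18, 229573_at 0.57). With the ACTB covariate 2 members rose, and without proliferating 5 the counts stayed at 5 lower and 1 higher.

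**Figure D4:**
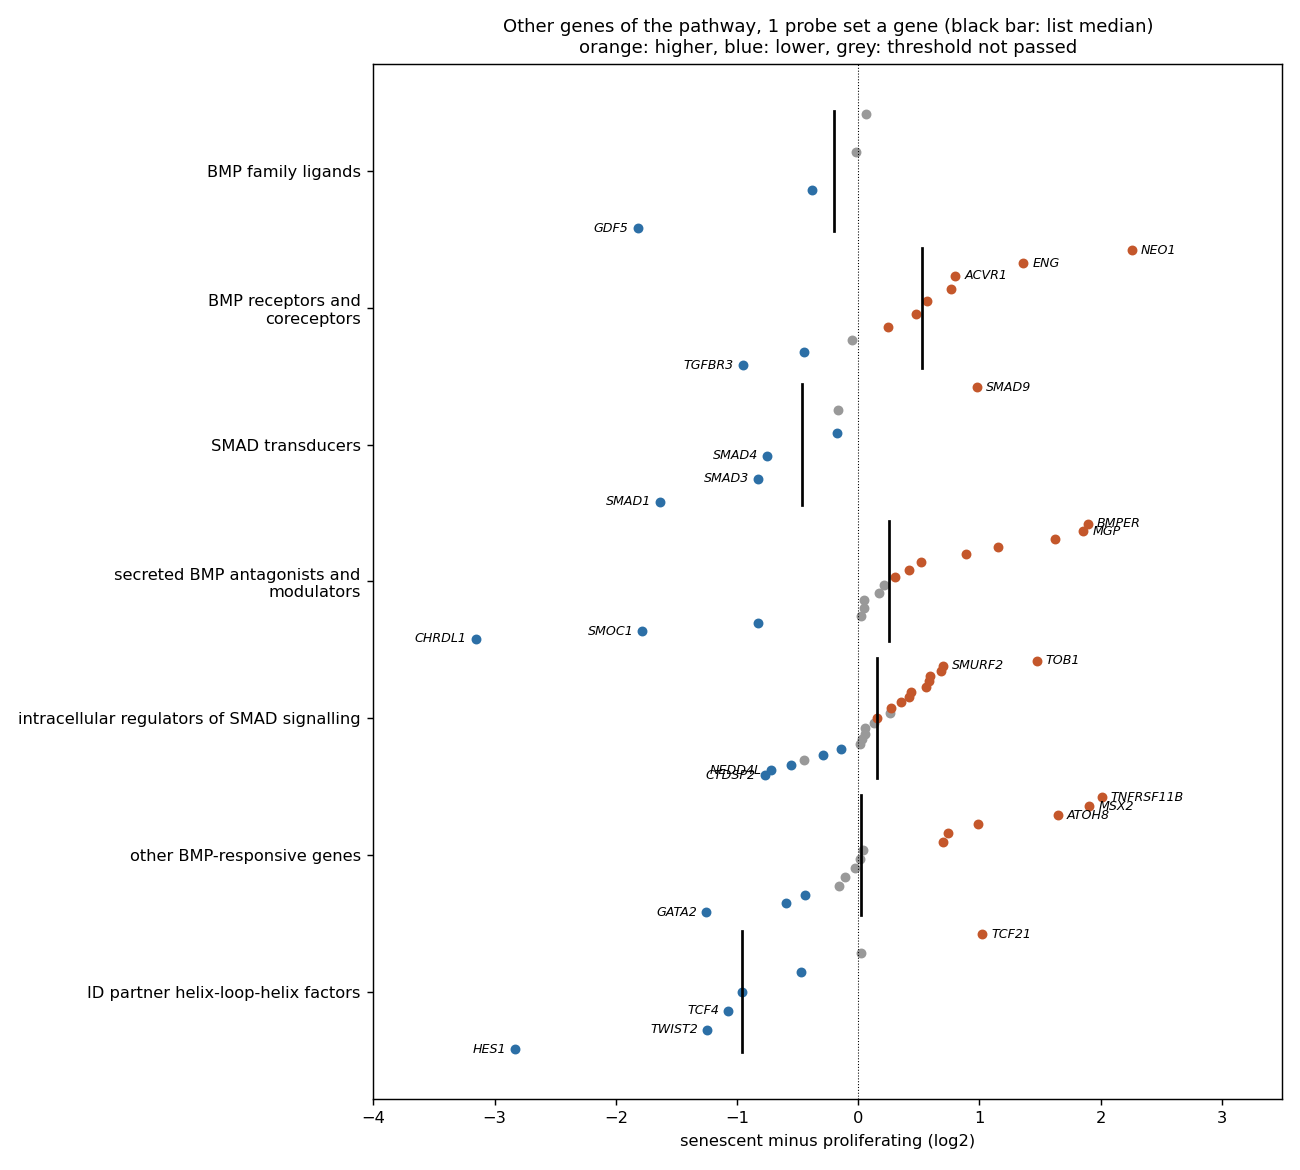
Senescent minus proliferating difference (horizontal axis, log2) of the 80 tested genes in 7 lists, 1 probe set a gene; orange rose, blue fell, grey did not pass, and the black bar is the list median. Receptors lie mostly to the right, and SMAD transducers and helix-loop-helix factors mostly to the left.

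The genes most like each member across the arrays were taken by Pearson's r over the 10 arrays and are given as a description. Where the groups of a member did not overlap, r mainly reflects the 2 groups. For BMP2 these were PBXIP1 and EFEMP1 (r = 0.998 and 0.997), for BMP4 FANK1 and NAAA (0.997 and 0.995), and for BAMBI JKAMP and DPP4 (0.998 each). SMAD7 was nearest to NUDT6 and LOC728392 (0.986 and 0.984). GREM1 was nearest to IRF2BP2 and HNRNPU (0.995 and 0.994) and ID4 to PPP2R1B and RNASEH1 (0.988 and 0.986). ID2 was nearest to TLK1 and FGFRL1 (0.965 and 0.951), SMAD6 to MTF1 and DCAKD (0.946 and 0.933), ID3 to TRAPPC2L and MAP3K3 (0.925 and 0.910), and ID1 to ALDH1A1 and CTF1 (0.990 and 0.957). The groups of ID2, SMAD6, ID3 and ID1 overlapped on the probe sets used here. ID1 lay near the bottom of the scale on every array, so its r values are not read.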

How the data were processed

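Total RNA of 5 proliferating and 5 senescent IMR90 samples was extracted with Trizol and hybridised to Affymetrix arrays, per the labels' protocols. The deposited values are log2 values per probe set and array, made by the authors with Partek and GCRMA, per the submitters' processing notes, which give no version or settings. That the logarithm has base 2 was inferred from the spread of the values. Detection calls, scan dates and scanner files were not used here.

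Probe sets were named from the platform annotation, with symbols updated through gene identifiers (RefSeq, GRCh38.p14). Of 54613 probe sets without the 62 controls, 41091 had 1 symbol, 1801 several and 11721 none. Differences of senescent minus proliferating means were tested two-sided with lmFit and eBayes in limma 3.58.1 (R 4.3.3), with Benjamini-Hochberg adjustment over all tested probe sets, or over genes for the lists, where the tested probe set of highest mean stood for a gene. Named list genes were the up to 4 called genes with the largest differences, and all genes of lists with up to 6 tested; others were named after their values were seen. Exact permutation tests ran over all assignments of 10 arrays to 2 groups of 5, and the smallest p they allow is 0.00794. The members, the lists and the pairs of genes were chosen with earlier results of these data known. Fits were tested on simulated data.

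Samples share replicate numbers, but deviations from the group means correlated between same-numbered samples by only -0.06 to 0.09, so the numbers were not taken as pairs. Alternatives were other filters, normalisations, variance models, a replicate block, array weights, an ACTB covariate and arrays left out. The number of arrays limits the precision. Figures used matplotlib 3.10.9.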

Additional observations from a re-analysis of the deposited data

Results flagged for a closer look

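Array proliferating 5 was far from the other proliferating samples for ID2 and ID4. On 201565_s_at ID2 read 10.54 in it and 9.29 to 9.43 in the others, a gap of 0.886 of the group's range against a critical 0.71 for 5 samples. On 226933_s_at ID4 read 9.19 in proliferating 5 and 7.78 to 8.13 in the others, and on 209291_at it read 9.06 beside 7.71 to 7.98. Senescent 5 was far below the other senescent samples for ID4 on 226933_s_at, with 6.10 beside 6.54 to 6.65. Chance flags about 1 in 20 groups, and among all tested probe sets a sample stood apart in this way in 10.8% of proliferating and 10.1% of senescent groups.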

How the results depend on the processing

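Over 20 alternatives, counts of higher and lower probe sets among these genes stayed at 7 and at 4 to 5, and over all probe sets they ran from 6544 to 9335 and from 6744 to 8870. The directions of the 14 tested probe sets did not change, and 268 of 279 comparisons kept their side of the threshold; the other 11 were ID4 on 209292_at. SMAD6 and ID3 passed under none, with adjusted p down to 0.058 in limma. Unequal change of ID2 and ID1 ran from 0.74 to 1.06 with a replicate left out and did not pass in 4 of 10 such cases, but ID1 lay near the bottom of the scale and this pair is not read. Centring on housekeeping genes moved the median of all genes by -0.03. Of 27 tested housekeeping genes 5 rose and 11 fell, or 59.3% called beside 61.3% of all genes, so they are no unchanged reference. With the replicate block 8419 probe sets rose and 8229 fell, 7 and 4 of them of these genes, and 2 of the 5 numbers correlated best with themselves. Low signal limits ID1, BMP4 in proliferating samples, the third ID4 probe set and the untested probe sets of SMAD6 and ID4. SMAD7 and BMP2 on 205290_s_at each lay above the 60th percentile on only 4 of 5 proliferating arrays, with lowest percentiles of 59.7 and 58. Low signal does not apply to the tested SMAD6 probe set, which lay between percentiles 71.5 and 75.7. Other background corrections were not tested. The alternatives with the mean of probe sets or without shared ones apply to genes only.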

Other observations

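Probe set 213931_at carries 2 symbols, ID2B and ID2, and therefore lay outside the choice by a single symbol. It read 5.65, 4.60, 4.58, 4.92 and 5.69 in proliferating and 6.25, 6.10, 5.68, 6.25 and 6.64 in senescent samples, a difference of 1.09 (SE 0.27, limma's adjusted p = 0.0056). The groups overlapped, since proliferating 5 exceeded senescent 3.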
